A study of Mus musculus with 4 samples.

Results

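Of the 2454 nuclear peaks of the Flag-Isl1-Lhx3 fusion, 13 had a Sprouty gene as their nearest protein-coding transcription start. The members were chosen by peak position in the deposited list, as the peaks nearest to Spry1, Spry2, Spry3 or Spry4. They comprised 11 peaks at Spry2, 1 at Spry1 and 1 at Spry4, in 12 of the 2301 regions of the list. Each peak was assigned by its maximum on mm9 to the nearest start of 22367 protein-coding genes of GENCODE M1. Spry3 had no record in that annotation and was not analysed here. Since peak positions made the choice, the counts and positions describe the locus and no p-value is attached to them.

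The peaks came from Flag ChIP-seq of mouse iMN-ESCs, a line made from A172LoxP embryonic stem cells that carries a tetracycline-inducible transgene for Isl1 fused to Lhx3 with a Flag tag, both of them LIM-homeodomain transcription factors of motor neurons. There were 2 libraries with Dox at 2 µg/mL, which switches the fusion on, and 2 libraries without Dox, all from cells with the transgene. In both groups embryoid bodies received 0.5 µM retinoic acid alone for 2 days and then for 4 days with or without Dox, and LIF was added for the last 16 hours. Nothing says whether the numbered sets were separate cultures or how many clones the line comprises. The deposited list gives 1 ChIP score, 1 background score and 1 tag count for each peak and no value per library, so with Dox was not compared with without Dox, and the cells could not be checked against marker genes.

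Sprouty proteins are intracellular inhibitors of receptor tyrosine kinase signalling. Fibroblast growth factors (FGFs) bind their receptors and activate RAS, RAF, MEK and ERK kinases; ERK signalling induces Sprouty genes, whose products then dampen the same route as a negative feedback. FGF and ERK signalling drives embryonic stem cells out of the pluripotent state and helps to pattern the neural tube in which motor neurons arise.

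Spry2 stood in a wide intergenic stretch and its peaks lay in that stretch, not in the gene. The gene (ENSMUSG00000022114.4) spans 4871 bp on the minus strand of chromosome 14 (106291166 to 106296036), with 1 annotated start. All 11 peak maxima were intergenic (71.5 to 100%, 95% exact binomial interval). So were 50.6% of the 2441 peaks not assigned to a Sprouty gene (48.5 to 52.6). The gene is a small part of the 206 kb nearest to its start, so most positions that could fall to Spry2 lie outside it. Downstream of the start, beyond the end of the gene, lay 9 maxima at 35.7 to 97.3 kb. Upstream lay the other 2, at 6.11 and 24.2 kb. The first and the last maximum were 122 kb apart.

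The 200 bp centred on 7 maxima are printed here, on the plus strand of mm9, because they carry the sequence contrasts described further on. Capitals mark the homeodomain core ATTA and its reverse complement TAAT, with the overlapping core TAATTA. Names give the distance from the start, positive downstream. The first 5 hold TAATTA, the sixth is the Spry2 window with no core, and the last is the Spry1 window. In that order they lie at chr14:106198602-106198801, chr14:106215092-106215291, chr14:106241226-106241425, chr14:106257962-106258161, chr14:106302042-106302241, chr14:106250677-106250876 and chr3:37556152-37556351.
Spry2 +97.3 kb: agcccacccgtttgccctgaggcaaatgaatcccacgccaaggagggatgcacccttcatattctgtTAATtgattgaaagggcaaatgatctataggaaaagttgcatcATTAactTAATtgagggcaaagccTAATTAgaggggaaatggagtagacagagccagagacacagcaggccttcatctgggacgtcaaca
Spry2 +80.8 kb: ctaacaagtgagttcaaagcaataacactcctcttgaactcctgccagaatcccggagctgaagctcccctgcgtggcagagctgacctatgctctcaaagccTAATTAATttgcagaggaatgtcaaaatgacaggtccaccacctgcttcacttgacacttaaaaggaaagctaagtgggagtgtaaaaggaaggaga
Spry2 +54.7 kb: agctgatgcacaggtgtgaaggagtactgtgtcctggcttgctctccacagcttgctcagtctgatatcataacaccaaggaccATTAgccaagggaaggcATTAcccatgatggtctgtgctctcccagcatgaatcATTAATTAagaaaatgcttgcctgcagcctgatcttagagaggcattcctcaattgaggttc
Spry2 +38.0 kb: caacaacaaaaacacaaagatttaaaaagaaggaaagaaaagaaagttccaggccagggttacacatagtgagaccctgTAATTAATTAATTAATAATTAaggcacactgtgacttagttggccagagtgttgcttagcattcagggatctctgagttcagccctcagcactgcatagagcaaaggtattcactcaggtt
Spry2 -6.1 kb: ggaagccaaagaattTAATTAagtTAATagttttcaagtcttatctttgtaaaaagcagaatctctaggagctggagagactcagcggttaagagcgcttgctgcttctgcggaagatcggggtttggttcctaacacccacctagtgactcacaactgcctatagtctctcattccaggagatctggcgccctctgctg
Spry2 +45.3 kb: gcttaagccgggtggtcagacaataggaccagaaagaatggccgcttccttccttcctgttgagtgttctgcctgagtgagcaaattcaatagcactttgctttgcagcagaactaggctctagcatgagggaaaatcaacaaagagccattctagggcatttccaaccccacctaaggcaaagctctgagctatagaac
Spry1 +17.2 kb: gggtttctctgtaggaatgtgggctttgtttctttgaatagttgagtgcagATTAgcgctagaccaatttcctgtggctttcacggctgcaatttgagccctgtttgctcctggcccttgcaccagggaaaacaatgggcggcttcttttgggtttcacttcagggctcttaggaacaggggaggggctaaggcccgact

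The strongest Spry2 peak was the one farthest from the start. At +97.3 kb the ChIP score was 80.03, rank 220 of 2454, over a background of 2.57, and its region held 63 tags (48.4 to 80.6, 95% exact Poisson interval). The scores are the authors' values with no stated scale, and the background sample is not named. Tag intervals cover counting error only, and library depth is not known. The next peak towards the gene, at +80.8 kb, had a ChIP score of 40.15 with the highest background score of the Spry2 peaks, 5.33, and 20 tags. It was also the Spry2 peak whose ChIP score was less than 10 times its background score, at 7.53 times.

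A pair of peaks followed at +58.3 and +54.7 kb, with 3.59 kb between their maxima. At +58.3 kb the ChIP score was 57.54, the background score 2.33 and the tag count 45. At +54.7 kb the ChIP score was 41.75, the background score 0.09 and the tag count 33. The peak at +45.3 kb scored 40.68 over a background of 3.08, with 48 tags in the widest Spry2 region, 816 bp. The highest of these 3 scores was that at +58.3 kb, while the +45.3 kb region had the most tags of the 3.

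Nearer to the gene, 4 maxima in 3 regions fell within 2.31 kb. The maxima at +36.7 and +36.3 kb shared 1 region of 718 bp and its 52 tags, and had ChIP scores of 39.61 and 44.7 with background scores of 2.61 and 2.05. Beside them, the peak at +38.0 kb scored 33.19 against a background score of 0.59, with 38 tags. The peak at +35.7 kb was the weakest at Spry2, scoring 30.78 over a background of 0.62, with 21 tags and rank 2315. This tight group therefore held the weakest Spry2 peak and a peak of middling rank (977) in adjoining regions.

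On the promoter side the 2 peaks were of similar score. At -6.1 kb, the Spry2 peak nearest to the start, the ChIP score was 36.67, the background score 0 and the tag count 20. At -24.2 kb the ChIP score was 37.74, the background score 1.08 and the tag count 37. Between the -6.1 kb peak and the +35.7 kb peak, 41.8 kb that include the whole gene held no listed peak. Within 10 kb of the start lay 1 of the 11 Spry2 peaks (9.09%, 0.23 to 41.3), against 33.1% of the other peaks (31.3 to 35). The bases nearest to the Spry2 start came to 206 kb, so those within 10 kb of it are a small part of them. For all protein-coding genes the median was 45.5 kb. The part of this in the count was not tested.

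**Figure D1:**
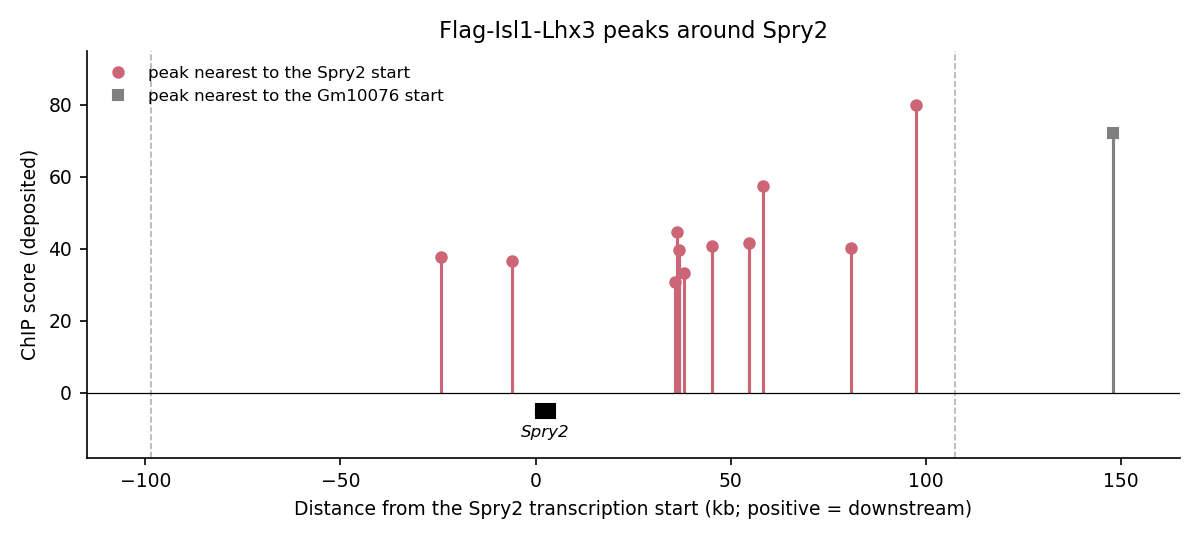
ChIP score (deposited, no unit) of each peak against its distance from the Spry2 start in kb, positive downstream. The black bar is the gene, dashed lines are the midpoints to the neighbouring protein-coding starts (107 kb downstream and 98.5 kb upstream), and the grey square is the nearest peak assigned to another gene. Most peaks stand to the right of the gene, and the 2 tallest of the 12 stand farthest right.

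The Spry2 peaks were many but mostly of middling score. Its 11 ChIP scores ran from 30.78 to 80.03 with a median of 40.15, while those of the other 2441 peaks ran from 29.98 to 321.18 with a median of 40.95. Above the median of the whole list were 4 of the 11 (36.4%, 10.9 to 69.2) and 49.9% of the other peaks (47.9 to 51.9). The 10 Spry2 regions held 20 to 63 tags, median 37.5, and the median over 2289 other regions was 30. Region widths had medians of 539 and 467 bp in the same order.

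Background scores at Spry2 tended to be above those of the list. Their median was 2.05, against 0.33 over the other peaks, and 1 of 11 was 0 (9.09%, 0.23 to 41.3) against 31.1% of the others (29.3 to 33.0). Still, 10 of 11 ChIP scores were at least 10 times the background score (90.9%, 58.7 to 99.8), against 94.6% of the others (93.6 to 95.5). The 11 peaks share 1 locus, so they are not independent of each other, and these intervals are too narrow.

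**Figure D2:**
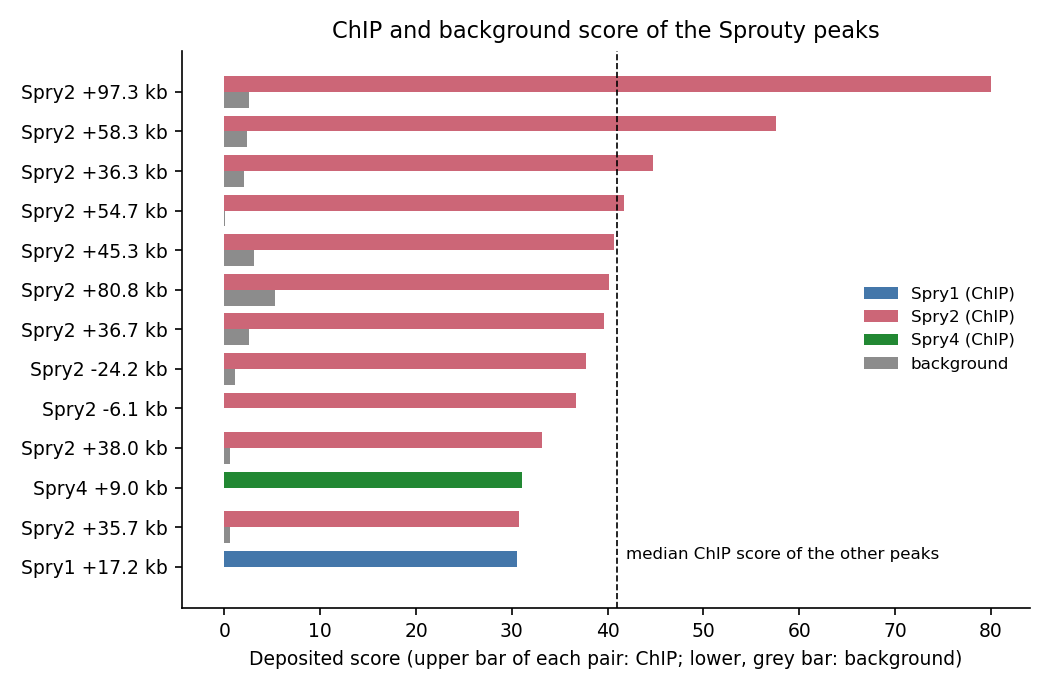
Deposited ChIP score (coloured bar) and background score (grey bar) of the 13 Sprouty peaks, ordered by ChIP score; the dashed line is the median of the other peaks. The Spry1 and Spry4 bars stand at the low end with no grey bar, and 4 Spry2 peaks exceed the median of the whole list, 40.95.

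With protein-coding starts alone competing, Spry2 had the most peaks of any gene in the list. With all annotated genes competing it had 6, and Sall1 had 7. Among the peaks in the upper 50% by score it had 4, as did 13 other genes, and in the upper 25% it had 2, with 9 genes above it. Among all 22367 such genes 8.16% had at least 1 nearest peak. Of the 3 annotated Sprouty genes all 3 did, a count that is not independent of how they were chosen. With protein-coding starts the genes next in number were Wwox with 8 peaks in 5 regions, Sall1, which encodes a zinc-finger factor, with 7 in 4, and then Sgk1, Stim2 and Tle4 with 6 each, in 4, 2 and 6 regions. A single peak was held by 1409 genes. Spry2 peaks lay in 10 regions, so regions with several maxima account for 1 of its 11.

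Genes with more sequence to themselves held a peak more often. The bases nearest to the Spry2 start came to 206 kb, more than for 86.9% of protein-coding genes, whose median was 45.5 kb. Genes with a peak had a median of 145 kb and genes without one a median of 42.0 kb. Per megabase of such sequence Spry2 had 53.4 peaks, Sall1 36.7, Sgk1 24.4, Wwox 10.2, Tle4 5.62 and Stim2 2.98, against 0.924 over the genome. Sall1 peaks spanned 71.8 kb and Sgk1 peaks 108 kb, while those of Wwox, Tle4 and Stim2 were spread over 705, 613 and 1030 kb.

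**Figure D3:**
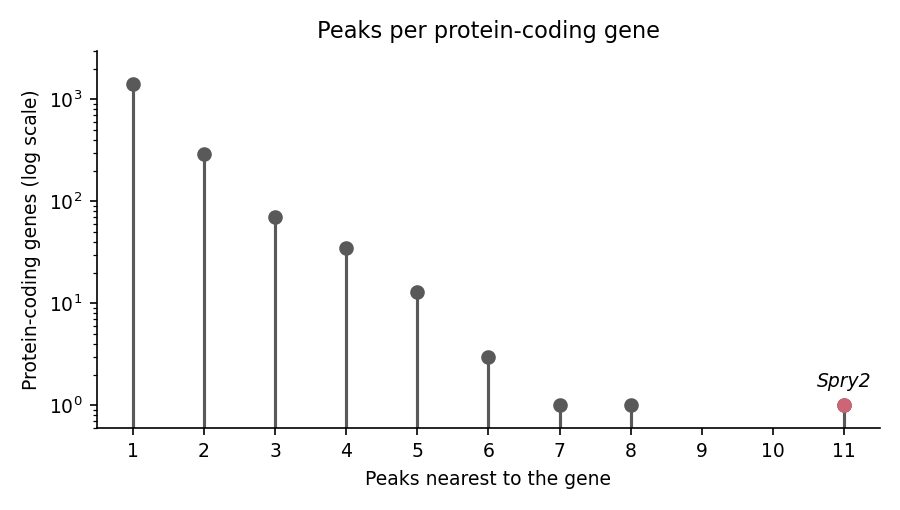
Number of protein-coding genes (log scale) by their number of nearest peaks, for genes with at least 1. The counts fall from 1409 genes with 1 peak to 3 genes with 6, and Spry2 stands alone at 11.

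The same peak positions can also be counted in windows that ignore gene annotation, a description that is not independent of the choice of the locus. In windows of 100 kb that begin at a peak, the highest count that included a Spry2 peak was 9, and the highest elsewhere was 7, at Sall1. The median window held 1 peak. With windows of 50 kb the highest counts were 8 with a Spry2 peak and 6 elsewhere, around Bcl2l1 on chromosome 2. With windows of 200 kb they were 12 and 7, and with 1 peak kept per region 11 and 5. Spry2 peaks made up 11 of the 186 peaks of chromosome 14 (5.91%, 2.99 to 10.3).

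Another listed peak lay beyond the line where assignment passed to the next gene. The peak just outside, at 148 kb downstream of the Spry2 start (106147439 to 106147938), was nearer to the start of the predicted gene Gm10076 and scored 72.27 over a background of 3.61, with 55 tags. The peak just inside was the one at +97.3 kb, with 80.03. On the upstream side the last Spry2 peak scored 37.74, and the next listed peak lay 1550 kb from the start, with a score of 61.29, assigned to Gm4666. Farther downstream a peak near 4930449E01Rik, a gene whose start is 398 kb away, had a score of 145.33 and rank 33. Ndfip2, which encodes an adaptor of NEDD4-family ubiquitin ligases and starts 602 kb from Spry2, had no peak; both genes were singled out after their values were seen.

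The call of Spry2 as nearest gene depends on which genes compete. A microRNA gene, AC140340.1, starts between the downstream peaks, and with all 37273 annotated genes it took the 5 peaks from +45.3 to +97.3 kb, the nearest of them at -0.93 kb from its start. Spry2 then kept 6 peaks. The list holds binding positions only, and which gene a peak acts on was not tested.

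Homeodomain cores were present at most, not all, Spry2 peaks. The core ATTA (4 letters, either strand, matches to TAATTA included) was found in the 200 bp windows of 10 of 11 Spry2 peaks (90.9%, 58.7 to 99.8), against 94.2% of other peaks (93.2 to 95.1). Flanking windows 1000 bp to either side held it in 17 of 22 cases at Spry2 (77.3%, 54.6 to 92.2) and in 66.7% at other peaks. The flanks were not cleared of neighbouring peaks. Among the 4 Spry2 maxima within 2.31 kb, some flanks overlap the window of another peak, so the Spry2 flanks are no clean background. The longer core TAATTA was in 5 of 11 Spry2 windows (45.5%, 16.7 to 76.6) and 2 of 22 of their flanks (9.09%, 1.12 to 29.2). In other peaks it was in 34.3% (32.4 to 36.2) and in their flanks in 6.49%. The Spry2 shares were near those of the list, and GC content was too, with medians of 46.5% in Spry2 windows and 48% in the others.

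The 5 Spry2 windows with TAATTA differed in how many cores they held and where. At +38.0 kb, 4 TAATTA matches, together with a separate ATTA match that bridged the base between the third and the fourth, covered an uninterrupted run of 21 bases that ended 1 base before the maximum, in the window with the lowest GC content (39.5%). At +80.8 kb a single TAATTA, within a run of 8 core bases, started 3 bases past the maximum. At +97.3 and +54.7 kb the match started 34 and 40 bases past it, with 5 ATTA matches in each window. At -6.1 kb it lay at -85 to -80 bases from the maximum. The +45.3 kb window held no ATTA, and the +36.3 kb window had 5 ATTA matches but no TAATTA.

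Within the locus, the scores of Spry2 peaks with and without TAATTA overlapped and had close medians. The 5 Spry2 peaks with TAATTA had ChIP scores of 33.19 to 80.03 (median 40.15) and the 6 without it scores of 30.78 to 57.54 (median 40.14). The peak with most core matches, at +38.0 kb, had the second lowest score at Spry2, and the peak with none, at +45.3 kb, a score of 40.68. The 9 ATTA and 4 TAATTA matches at +38.0 kb overlap within a single run of 21 bases, so they are not separate observations. Whether repeated sequence in the windows affects the scores or the matches was not tested. The Spry2 peaks share a locus and are not independent, so these values cannot show whether score follows the core. Over the 10 Spry2 windows with an ATTA, the nearest one lay 2.5 to 76.5 bases from the maximum, median 22.5, against a median of 15.5 over other peaks.

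Paired cores and shared short runs were counted among the Spry2 windows. ATTA followed by TAAT with 3 bases between, counted on both strands, was in 2 of 11 Spry2 windows (18.2%, 2.28 to 51.8), those at +97.3 and -6.1 kb, against 4.88% of other peaks (4.05 to 5.81). TAAT repeated with 5 bases between was in 1, at -6.1 kb, against 6.02%. In the -6.1 kb window both pairs and the TAATTA match overlap, at -85 to -73 bases from the maximum. They are therefore not separate observations. In 55 pairwise comparisons of the Spry2 windows on both strands, the longest exact run that a pair shared was of 6 to 13 bases. The longest, caaagccTAATTA with the core in capitals, joined the windows at +97.3 and +80.8 kb, and 0 of the 2441 other windows held it, which allows a share of up to 0.123% (3 counts of the total). The next, of 12 bases, joined +97.3 and -6.1 kb and was in 3 other windows. It contains the paired cores with 3 bases between of these same windows, so it is not a separate observation. A pair of runs of 11 bases, both without a core, joined +45.3 and +54.7 kb with +35.7 kb, and these too were in 0 other windows. Most pairs shared runs of 7 or 8 bases (16 and 23 pairs), so the windows were not copies of one sequence. These runs were looked for after the sequences were seen and were given no test. Each was picked as the longest of its pair, and a given run of 11 to 13 bases is rare in any windows of this size. A count of 0 in other windows therefore cannot show that a run is particular to Spry2.

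Sites of other factors were few in the Spry2 windows. The series title names STAT3, a factor activated by LIF, and 1 of 11 windows held its relaxed site TTCNNNGAA (9.09%, 0.23 to 41.3), 86 bases past the maximum at +58.3 kb, against 4.96% of other peaks (4.13 to 5.89). The strict site TTCCNGGAA, which is contained in the relaxed one, was in 0 of 11, against 0.737% of other peaks. The SOX site ATTGTT was in 2 of 11, at +36.7 and -24.2 kb, against 14.3%. The POU octamer ATGCAAAT was in 0 of 11 against 4.26%, and the E-box CAGCTG in 0 of 11 against 14%. With 11 windows a count of 0 has a 95% exact upper bound of 28.5%, so none of these shares can be set apart from that of the list. All motifs were searched on both strands.

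**Figure D4:**
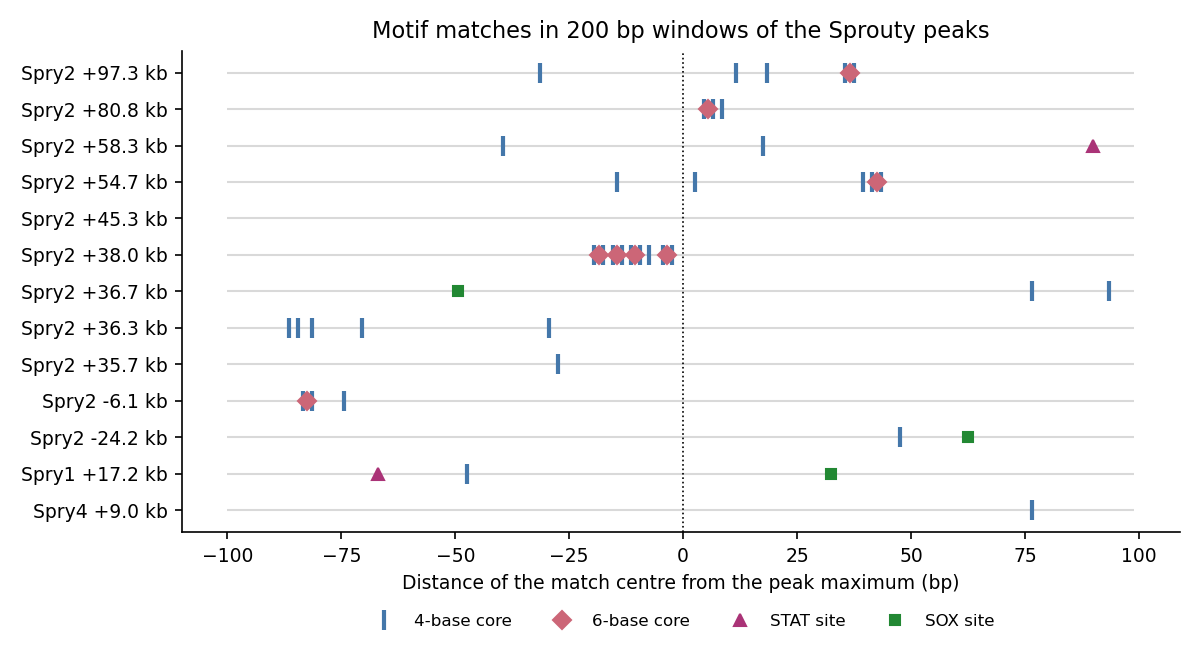
Centres of motif matches against distance from the peak maximum in bp, 1 line per Sprouty peak; blue ticks are the 4-base homeodomain core, red diamonds the 6-base core, triangles the relaxed STAT site and squares the SOX site. Diamonds occur at 5 of 11 Spry2 peaks and at neither the Spry1 nor the Spry4 peak, and the +45.3 kb line is empty.

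Spry1 had 1 weak peak. The gene (ENSMUSG00000037211.5) spans 4652 bp on the plus strand of chromosome 3 (37538869 to 37543520) and has 4 starts. Its peak (37556003 to 37556502) was intergenic, 17.2 kb downstream of the nearest start, and scored 30.51 over a background of 0, with rank 2357 and 14 tags (7.65 to 23.5). Its window held 1 ATTA, at -49 to -46 bases from the maximum, no TAATTA, 1 relaxed STAT site and 1 SOX site. The neighbouring starts, Spata5 at 112 kb and Gm5148 at 84.2 kb, had no peak, and the nearest other listed peaks lay at 318 kb (score 44.43) and -866 kb (43.63) from the first Spry1 start. Fgf2, an FGF ligand gene 259 kb from Spry1, had none.

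Spry4 also had 1 weak peak, inside the gene. The gene (ENSMUSG00000024427.6) spans 15001 bp on the minus strand of chromosome 18 (38745922 to 38760922) with 1 start. Its peak (38751701 to 38752200) lay in an intron, 8.97 kb downstream of the start, and scored 31.05 over a background of 0, with rank 2265 and 31 tags (21.1 to 44.0). The window held 1 ATTA, 75 bases past the maximum, and no TAATTA. Unlike Spry2, Spry4 has close neighbours: Arhgap26 and 9630014M24Rik start 0.266 kb upstream of it on the other strand, so that only peaks on the gene's own side could fall to Spry4.

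Stronger peaks near Spry4 were assigned to its neighbours. Arhgap26 had 2 peaks, the stronger with a score of 94.48 and rank 145, at -77.6 kb from the Spry4 start and 2.12 kb from a start of its own. Ndfip1, the related gene to Ndfip2, had 1 peak of score 53.26 at -38.8 kb from its start, which is 182 kb from that of Spry4. Per megabase of nearest sequence Spry4 had 11 peaks and Spry1 10.2, against 53.4 for Spry2. These densities rest on 1 peak each, and the difference in number between the genes is part of how the locus was chosen.

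Other genes of the FGF and ERK pathway were counted from 6 lists of 99 genes, all of which matched the annotation. The lists were chosen with earlier results of these data known, so their shares are a description only. A nearest peak was found at 14 of the 99 (14.1%, 7.95 to 22.6), against 8.16% of all protein-coding genes. The list genes had more room, with a median of 113 kb of nearest sequence against 45.5 kb, and the part of this in the count was not tested. With all annotated genes competing the count was 9, against 5.2% of 37273 genes. Among the 1227 peaks with the highest scores it was 7, against 4.63%, and with peaks within 100 kb of a start 10, against 6.91%.

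Among FGF ligand genes 4 of 22 had a peak (18.2%, 5.19 to 40.3), against 8.16% of all protein-coding genes. Their median of nearest sequence was 70.3 kb, against 45.5 kb. Fgf9 had 2, of score 51.39 and 32.12, at 179 and 25 kb from its start. Both were nearer to the start of Gm17109, so 3 ligand genes had a peak with all annotated genes competing. The share of all annotated genes was then 5.2%. Fgf1, 257 kb from Spry4, had 1 of score 48.44 in an intron at -4.52 kb. Fgf12, which encodes an intracellular member of the family, had 3 of at most 38.54, all 360 kb or more from its start, and Fgf7 had 1 of score 30.51 in an intron of Galk2. Of 25 receptor and co-receptor genes 2 had a peak (8%, 0.984 to 26), a share near the 8.16% of all protein-coding genes. The median of nearest sequence was 225 kb for these 25, against 45.5 kb, and its part in the count was not tested. The 2 genes with a peak are given next. These were Fgfr1, with a score of 63.97 at -121 kb, and Erbb4, with 32.39 at 362 kb. With all annotated genes competing the count was 0, since Gm10689 and AC101833.1 were nearer, against 5.2% of all annotated genes. With peaks within 100 kb it was also 0, against 6.91% of all protein-coding genes.

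Among 13 feedback inhibitors other than Sprouty, 3 had a peak (23.1%, 5.04 to 53.8), against 8.16% of all protein-coding genes. Their median of nearest sequence was 133 kb, against 45.5 kb. Spred2, whose product shares the Sprouty-type domain and inhibits RAF activation, had 1 of score 52.19 in its own intron. Nf1, a RAS GTPase-activating protein gene, had 1 of score 41.22 at -0.122 kb from its start, with a background score of 0. Lrig1, which encodes an inhibitor of ERBB receptors, had 2, of score 37.74 and 34.53. None of 9 genes of Sprouty-binding proteins had a peak, with an upper bound of 33.6%.

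Among 10 genes known to respond to ERK, 4 had a peak (40%, 12.2 to 73.8), against 8.16% of all protein-coding genes. As this list too was chosen with earlier results known, the interval cannot show a share above that of all genes. Their median of nearest sequence was 149 kb, against 45.5 kb, and its part in the count was not tested. The count was 3 with all annotated genes competing, 2 among the peaks in the upper 50% by score and 3 with peaks within 100 kb. The shares over all genes at these settings were 5.2%, 4.63% and 6.91%, in the same order. Etv1, an ETS-family factor gene induced by FGF, had the strongest of all 6 lists, scoring 127.4 over a background of 0 at rank 52 with 119 tags, 257 kb from its start in intergenic sequence, where a U7 small nuclear RNA gene was nearer. Its relative Etv5 had 1 of score 51.92 in its own intron at -4.49 kb. Myc had 1 of score 37.2 at 7.47 kb, and Phlda1 had 2, of score 37.74 and 31.05. No gene of these lists reached the 11 peaks of Spry2, and the highest number was 3, at Fgf12.

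**Figure D5:**
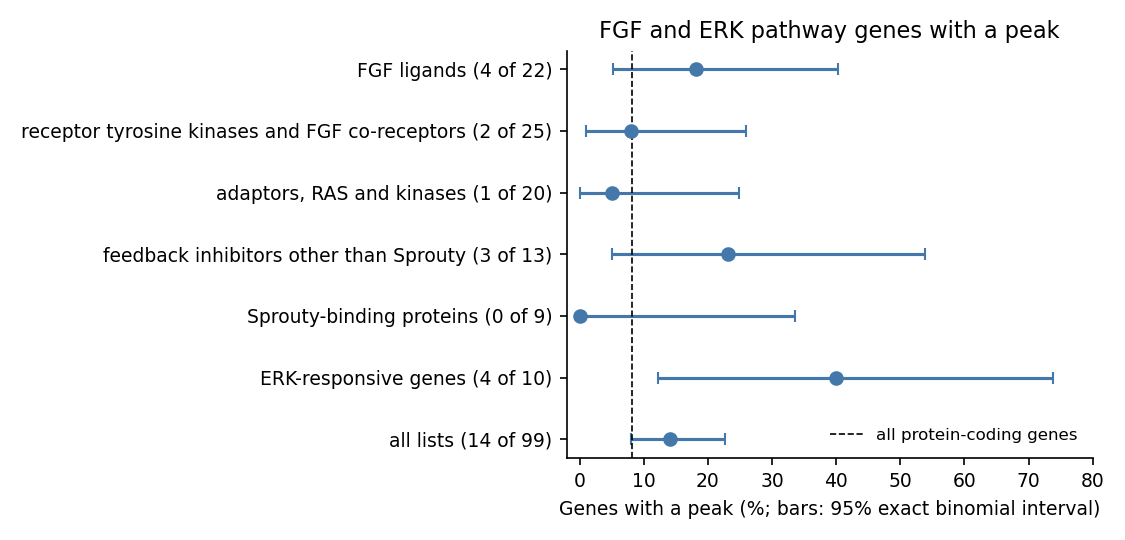
Percent of the genes of each list with at least 1 nearest peak (points) with 95% exact binomial intervals (bars); the dashed line is the share of all protein-coding genes, 8.16%. The points run from 0% for the Sprouty-binding proteins to 40% for the ERK-responsive genes, 4 of 10. The median of nearest sequence was above that of all protein-coding genes in every list plotted. The lists were chosen with earlier results of these data known, and no list was tested against the line.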

How the data were processed

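Flag ChIP-seq was carried out on 4 libraries, 2 with Dox and 2 without. Per the submitters' processing notes, BWA 0.5.8a and the build mm9 (NCBIM37) were used. How peaks were called and libraries pooled is not stated in the labels. Deposited by the authors was 1 list of 2455 peaks, with a ChIP score and a background score of unstated scale and a whole-number count of tags per region. A single mitochondrial peak was left out. Depth per library is unknown.

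Maxima were assigned to the nearest transcription start in GENCODE M1 with Python 3.11.15, pandas 2.3.3, numpy 2.4.6, scipy 1.17.1 and pysam 0.24.0. The assignment was tested on simulated positions. Sequences were read from NCBIM37 in windows of 200 bp. Share intervals are exact binomial (Clopper-Pearson) and tag intervals exact Poisson, at 95%, for counting error only. No test was run, since the choice of the genes was not independent of the peaks and no value per library exists. The Sprouty genes and the pathway lists were chosen with earlier results of these data known. Named genes are the Sprouty genes, their nearest neighbours, the genes with most peaks (the sixth is tied with the fourth) and list members with a peak, except for an item not reported here. Alternatives were all annotated genes, 1 peak per region, the top 50% or 25% of peaks by score, a limit of 100 kb, 1 start per gene, the middle of the region, windows of 100 or 500 bp, the strict STAT site and 1 added to each score.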

Additional observations from a re-analysis of the deposited data

How the results depend on the processing

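The number of Spry2 peaks, 11, was 10 with 1 peak per region and 11 with the 100 kb limit, with 1 start per gene and with the middle of the region. It was 6 with all annotated genes, 4 in the top 50% of peaks by score and 2 in the top 25%. The number of Sprouty genes with a peak, 3, was 1 in the top 50% and 1 in the top 25%, both times Spry2. The 14 pathway genes with a peak became 9 with all annotated genes and 7 in the top 50%, settings that leave fewer peaks to each gene by construction. TAATTA was in 4 Spry2 windows of 100 bp and 6 of 500 bp, against 5. The relaxed STAT site was in 0 windows of 100 bp and 3 of 500 bp, against 1. Of 26 alternatives, 16 stayed within 1.5 times the main count or, for the median score, within 1 SD of the peaks, and 10 did not. No paired analysis was possible because the list holds no value per library, and for the same reason no library could be left out.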
